A study of Mus musculus with 9 samples.

Results

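The 9 genes described here encode factors that promote or restrain the growth of blood and lymph vessels in the cornea, a tissue that normally has none at its centre. They are the ligands Vegfa, Vegfb, Vegfc and Angpt1, the receptors Flt1, Kdr and Flt4, the inhibitor Serpinf1 and the vessel marker Pecam1. They were chosen by gene symbol, from their known roles and with earlier results of these data known. All probe sets carrying 1 of these symbols alone in the platform annotation were taken, which gave 18 of the 45037 probe sets other than array controls. They stand for 9 of the 18193 genes with such a symbol. Each gene was read from the brightest of its probe sets, by the mean of all arrays. The other 9 probe sets served as a check. RNA from the central cornea was hybridised to Affymetrix arrays for 3 inbred strains without any treatment, SJL/J (SJL, a thick cornea per the labels), C57BLKS/J (KS, a thin cornea) and C57Bl/6J (B6, no thickness given). Each strain had 3 adult males, 4 months old, and 1 array stood for the pooled 2-mm punches from both eyes of 1 mouse. The mice replicate the strain, so thickness and the rest of a strain's background cannot be told apart.

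Vascular endothelial growth factors signal through receptor tyrosine kinases on endothelial cells. Kdr carries the main signal for blood vessel growth, Flt1 binds Vegfa and Vegfb and in the cornea is known as a soluble decoy that traps Vegfa, and Flt4 is the receptor of lymphatic endothelium for Vegfc. Angpt1 stabilises vessels through the receptor Tek. Serpinf1 encodes pigment epithelium-derived factor, a secreted serpin that restrains vessel growth in the eye. Pecam1 is an adhesion molecule of endothelial cells, platelets and leukocytes. The clear cornea is kept free of vessels by an excess of restraining over promoting signals.

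Markers of cornea gave signal on all arrays, with the corneal keratin Krt12 at 26007 to 27258 in SJL, 26364 to 27083 in KS and 27731 to 29278 in B6. KS replicate 3 stood apart through photoreceptor transcripts. The summed intensity of 8 retina markers was 5244 on that array and 38.0 to 47.3 on the other 8. B6 replicate 3 had the highest log2 ratio of 3' to 5' signal for the Gapdh control, 1.55 against 0.73 to 1.17 on the other arrays. Results that move without these or other arrays are given with the values found without them. An intensity of 16 or lower on all 9 arrays is called near the lower end of the scale here, since 54.6% of all intensities lay under 16. Whether the probe sets concerned can detect their transcripts was not tested, so such a level does not bound the amount of a transcript. Intensities of probe sets from different genes are not on a common scale per molecule, so each gene was compared between strains and not with other genes.

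Of the 9 members, 4 gave intensities above 16 on at least 1 array. These were Serpinf1, Vegfb, Kdr and Vegfc. The other 5 lay near the lower end on every array, and so did 13 of the 18 probe sets, with values between 4.21 and 11.5. The filter on dim probe sets kept 5 members, the 4 above and Vegfa, and Angpt1, Flt1, Flt4 and Pecam1 were not tested. Limma called a difference among the strains for 2 of the 5, Vegfc and Kdr, the second only under some of the alternatives given with its values. The same F-test called 19.4% of all 22519 probe sets tested.

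**Figure D1:**
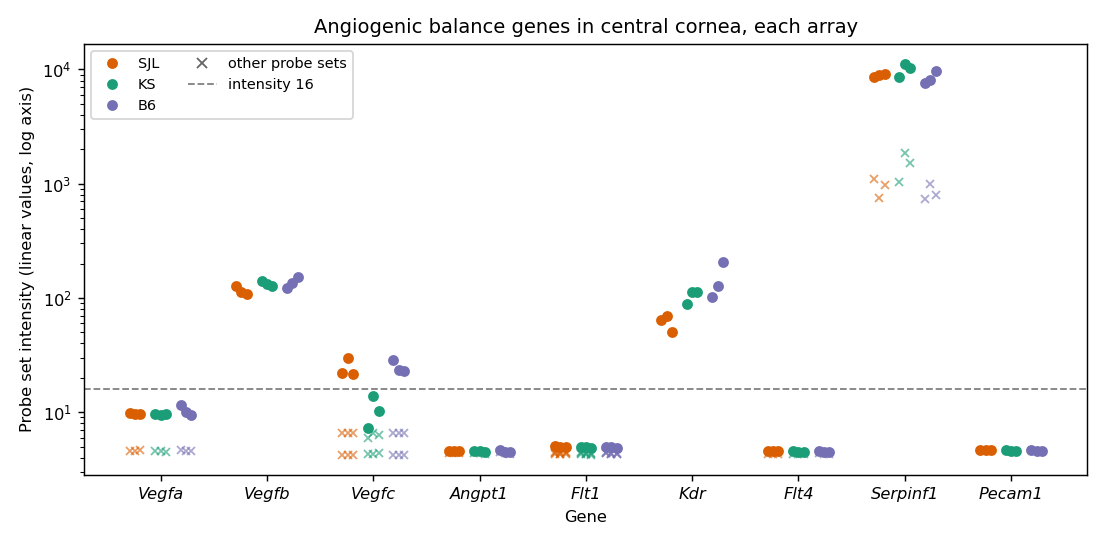
Probe set intensity of the 9 genes on each array (log axis), grouped by gene with SJL, KS and B6 from left to right. Filled points are the probe set that stands for the gene, crosses are its other probe sets, and the dashed line is an intensity of 16. Serpinf1, Vegfb and Kdr lie above the line on all 9 arrays, Vegfc lies above it in SJL and B6 and below it in KS, and the other 5 genes lie below it throughout.

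Among the ligands, Vegfa stayed near the lower end in all strains. Its intensities were 9.93, 9.65 and 9.67 in SJL, 9.67, 9.55 and 9.57 in KS, and 11.5, 9.97 and 9.52 in B6. The strains overlapped, and limma called no difference (log2 difference 0.011 for SJL minus KS, -0.053 for KS minus B6 and -0.041 for SJL minus B6, adjusted p = 0.757 to 0.947). The second Vegfa probe set ran from 4.52 to 4.67. Angpt1, the ligand of Tek, lay between 4.50 and 4.66 by its brighter probe set and between 4.35 and 4.45 by its other one. No strain order can be read from values at that level.

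Vegfb, a ligand of Flt1 that has little effect on vessel sprouting, gave signal in every cornea. Its intensities were 126, 114 and 108 in SJL, 142, 134 and 128 in KS, and 121, 136 and 154 in B6. All 3 SJL arrays lay below the KS arrays and overlapped with B6. SJL averaged 86.3% of KS, which was not a called difference (log2 difference -0.20, 95% interval -0.44 to 0.05, limma adjusted p = 0.264). The intervals also spanned 0 for KS against B6 (-0.26 to 0.22) and SJL against B6 (-0.46 to 0.02).

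Vegfc, the main ligand of Flt4 and a driver of lymphatic vessel growth, was lower in KS than in both other strains by its brightest probe set. Its intensities were 22.05, 29.9 and 21.6 in SJL, 7.31, 13.8 and 10.3 in KS, and 28.4, 23.6 and 23.1 in B6. The KS arrays lay below all arrays of the other strains, and all 3 were under 16. SJL against KS gave a log2 difference of 0.76 ± 0.14 (SE, n = 3 arrays a strain, limma adjusted p = 0.00855). KS against B6 gave -0.78 ± 0.14 (adjusted p = 0.0159), and SJL against B6 gave -0.025 (95% interval -0.36 to 0.31, adjusted p = 0.936). Over all probe sets tested, 6.98% were called higher and 8.52% lower in SJL against KS, and 2.91% higher and 2.8% lower in KS against B6. Vegfc was the 1 tested member of 5 that was called in each of these contrasts.

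The Vegfc result rests on a dim probe set. Its identifier carries a suffix that marks probes which may also match other transcripts, and the annotation gives it no accession. The other Vegfc probe sets lay between 5.92 and 6.64 and between 4.21 and 4.43, and neither was tested. With only probe sets that lack such a suffix, or with a gene taken as the mean over its probe sets, Vegfc was left out by the filter and no difference could be fitted. The call in KS against B6 was lost with no filter on dim probe sets (adjusted p = 0.0586), without KS replicate 3 (0.0608) and without B6 replicate 1 (0.0627). The call in SJL against KS held under all 18 alternatives in which this probe set was tested, at adjusted p-values up to 0.033. The size depended on the pseudocount, since the KS values were low. SJL against KS gave 1.18 with a pseudocount of 1 and 0.30 with 50, and KS against B6 gave -1.22 and -0.31. In bulk tissue, fewer cells that make a transcript and less RNA per cell cannot be told apart.

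Among the receptors, Kdr was lowest in SJL. Its intensities were 64.6, 69.1 and 49.96 in SJL, 88.8, 114 and 114 in KS, and 101, 127 and 206 in B6. All SJL arrays lay below all arrays of the other strains, while KS and B6 overlapped. SJL averaged 42.3% of B6, and the log2 difference of -1.07 ± 0.23 (SE, n = 3 arrays a strain) was called by limma (adjusted p = 0.0161). In SJL against B6, 7.92% of all probe sets tested were called higher and 8.09% lower, and Kdr was the 1 tested member of 5 called. SJL averaged 58.2% of KS, which was not called (log2 difference -0.70, 95% interval -1.23 to -0.16, adjusted p = 0.0857). KS against B6 differed by -0.38 (95% interval -0.91 to 0.16, adjusted p = 0.431). In the order SJL, KS, B6 of the means, neither neighbouring pair was therefore called.

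The spread of Kdr in B6 came mainly from B6 replicate 3, the array with the highest 3' to 5' ratio. Without that array, Kdr was still lower in SJL than in B6 (log2 difference -0.80, adjusted p = 0.0207), and SJL against KS was then called as well (adjusted p = 0.0208). KS against B6 then shrank to -0.11 (adjusted p = 0.829), so the step between these means came mostly from that array. The call in SJL against B6 was lost without SJL replicate 3 (adjusted p = 0.0625), with no filter on dim probe sets (0.06845), and with only the 6 arrays of the strains compared (0.0529). With only its own 6 arrays, SJL against KS was called (0.0295), and so it was with array weights (0.000697). The estimation of those weights stopped before it converged. That fit called 9450 probe sets in SJL against KS, beside 3489 in the reported fit. The F-test over the 3 strains called Kdr (adjusted p = 0.0306). That call was lost without SJL replicate 1 (0.0643), 2 (0.0549) or 3 (0.112), KS replicate 2 (0.0605) or 3 (0.0598), or B6 replicate 2 (0.0578), and also with no filter (0.119) and with the replicate number as a block (0.0523). Kdr had 1 probe set, so no second probe set could be set beside it.

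Flt1 and Flt4 gave no signal above the lower end. The 4 Flt1 probe sets ran from 4.26 to 5.06 and the 2 Flt4 probe sets from 4.29 to 4.62. Which of the Flt1 probe sets read the soluble form was not analysed here.

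Serpinf1, the inhibitor of the set, gave signal on all arrays with no called difference between strains. Its intensities were 8571, 8936 and 9087 in SJL, 8581, 11259 and 10364 in KS, and 7553, 8004 and 9753 in B6. The strains overlapped in every pair, with means of 8865 ± 265 in SJL, 10068 ± 1364 in KS and 8437 ± 1162 in B6 (SD, n = 3). Limma called no contrast, with 95% intervals of -0.48 to 0.13 for SJL against KS, -0.05 to 0.55 for KS against B6 and -0.22 to 0.38 for SJL against B6. The second Serpinf1 probe set read 1089, 755 and 972 in SJL, 1043, 1849 and 1527 in KS, and 733, 1002 and 795 in B6. Its KS arrays all lay above the B6 arrays (log2 difference 0.77, unadjusted p = 0.00902, adjusted p = 0.104), which limma did not call. On this probe set SJL against KS differed by -0.62, also without a call (95% interval -1.14 to -0.10, adjusted p = 0.11), and the arrays overlapped. By this check, unlike the brighter probe set, the intervals of both contrasts with KS left out 0.

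**Figure D2:**
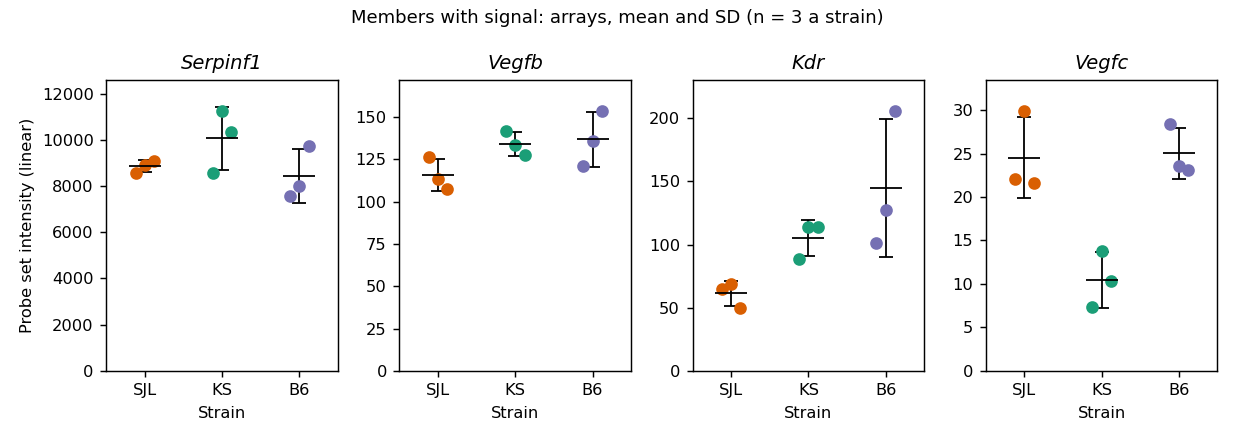
Intensity (linear axis from 0) of the 4 members with signal, with SJL, KS and B6 from left to right. Points are arrays, horizontal bars are means and error bars are SD over 3 arrays. Kdr is lowest in the 3 SJL arrays, Vegfc is lowest in the 3 KS arrays, and the strains overlap for Serpinf1.

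**Figure D3:**
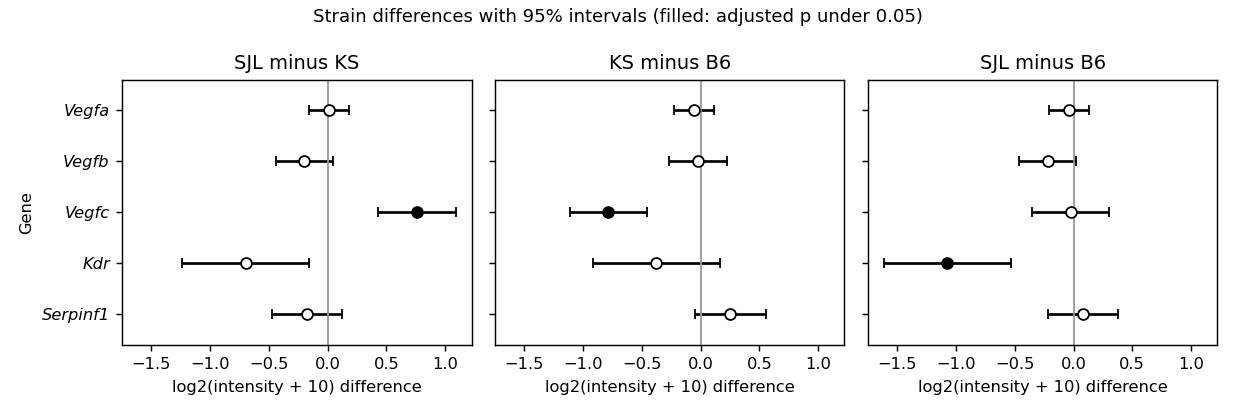
Differences in log2(intensity + 10) of the 5 tested members in 3 contrasts, with 95% intervals from limma. Filled points had an adjusted p under 0.05, which held for Vegfc in SJL minus KS (0.76) and KS minus B6 (-0.78) and for Kdr in SJL minus B6 (-1.07).

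The reference sequence before the start of these genes is shown for the 2 members that were called and for Serpinf1, as the sites from which the measured transcripts are read. Each line gives the 250 bases before a RefSeq start on the build GRCm38.p6, which is the C57BL/6J sequence, 5′ to 3′ on the gene's strand. Capitals mark the GC box GGGCGG or its reverse complement, a site bound by Sp1 and related factors. The alleles of KS and SJL were not analysed here.

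Kdr, chr5:75978456-75978705, minus strand: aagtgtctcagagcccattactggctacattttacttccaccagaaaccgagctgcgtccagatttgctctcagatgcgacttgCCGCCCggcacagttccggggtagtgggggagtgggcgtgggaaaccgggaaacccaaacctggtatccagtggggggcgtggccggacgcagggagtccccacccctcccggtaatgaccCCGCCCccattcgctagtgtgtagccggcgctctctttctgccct
Vegfc, chr8:54077282-54077531, plus strand: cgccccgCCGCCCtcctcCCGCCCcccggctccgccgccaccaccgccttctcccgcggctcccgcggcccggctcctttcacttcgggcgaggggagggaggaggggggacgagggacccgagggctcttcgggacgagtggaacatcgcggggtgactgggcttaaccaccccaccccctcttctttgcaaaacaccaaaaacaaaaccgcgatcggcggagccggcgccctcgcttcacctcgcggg
Serpinf1, chr11:75422624-75422873, minus strand: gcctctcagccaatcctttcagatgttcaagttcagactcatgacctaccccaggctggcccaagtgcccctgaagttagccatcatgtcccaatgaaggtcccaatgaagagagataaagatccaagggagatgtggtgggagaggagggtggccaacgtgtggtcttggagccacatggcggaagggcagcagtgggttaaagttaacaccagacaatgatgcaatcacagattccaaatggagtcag

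The Kdr and Vegfc windows each held 2 GC boxes, and the Serpinf1 window held 0. RefSeq windows were matched for 7 of the 9 members, and 6 of these held at least 1 GC box on either strand, against 32.7% of all 32851 windows of that length. The share of G and C was 61.6% for Kdr, 71.6% for Vegfc and 51.6% for Serpinf1, beside a median of 52.4% over all windows. CpG pairs numbered 16, 30 and 2 in the same order. The core ACGTG of hypoxia response elements, searched on both strands, was found once in the Serpinf1 window and in neither of the other windows shown, and 16.6% of all windows held it. Such letter matches describe the sequence and do not show that a factor binds there.

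Pecam1 and most other markers of vessels lay near the lower end of the scale. Pecam1 was between 4.57 and 4.69 on all arrays. Of 14 genes of blood vessel endothelium 12 were near the lower end everywhere, at 4.14 to 5.90, among them the junction genes Cdh5, Esam and Cldn5, the clotting factor gene Vwf and the receptors Tek and Tie1. The exceptions were Eng, a co-receptor for TGF-beta ligands, at 17.0 ± 3.09 in SJL, 14.8 ± 2.56 in KS and 13.3 ± 1.63 in B6, and Erg, a transcription factor of endothelium, at 77.0 ± 2.89, 83.6 ± 5.10 and 89.1 ± 16.3 in the same strains (SD, n = 3). Limma called neither in any contrast. The summed intensity of the 14 genes was 144 to 153 in SJL, 144 to 157 in KS and 145 to 177 in B6.

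Markers of mural, lymphatic and red blood cells gave a similar picture, apart from genes that other corneal cells also express. Rgs5, Cspg4, Kcnj8 and Abcc9 of the 5 mural markers and Lyve1 and Prox1 of the 3 lymphatic markers on the array were near the lower end. So were Hba-a1 and Alas2, the only 2 of 4 listed red blood cell markers with a probe set of a single symbol. The beta-globin genes Hbb-bt and Hbb-bs had none. Pdgfrb, a growth factor receptor also found on fibroblasts, was at 388 ± 72.7 in SJL, 545 ± 75.9 in KS and 628 ± 136 in B6 and was called lower in SJL against B6 (adjusted p = 0.0439). Pdpn, podoplanin, which epithelial cells also make, was at 5710 ± 142, 4897 ± 497 and 6837 ± 556 in SJL, KS and B6 (SD, n = 3). Pdpn was called lower in KS against B6 (log2 difference -0.48, adjusted p = 0.02905), the contrast in which Vegfc was also called lower, and its part in the Vegfc difference was not tested.

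**Figure D4:**
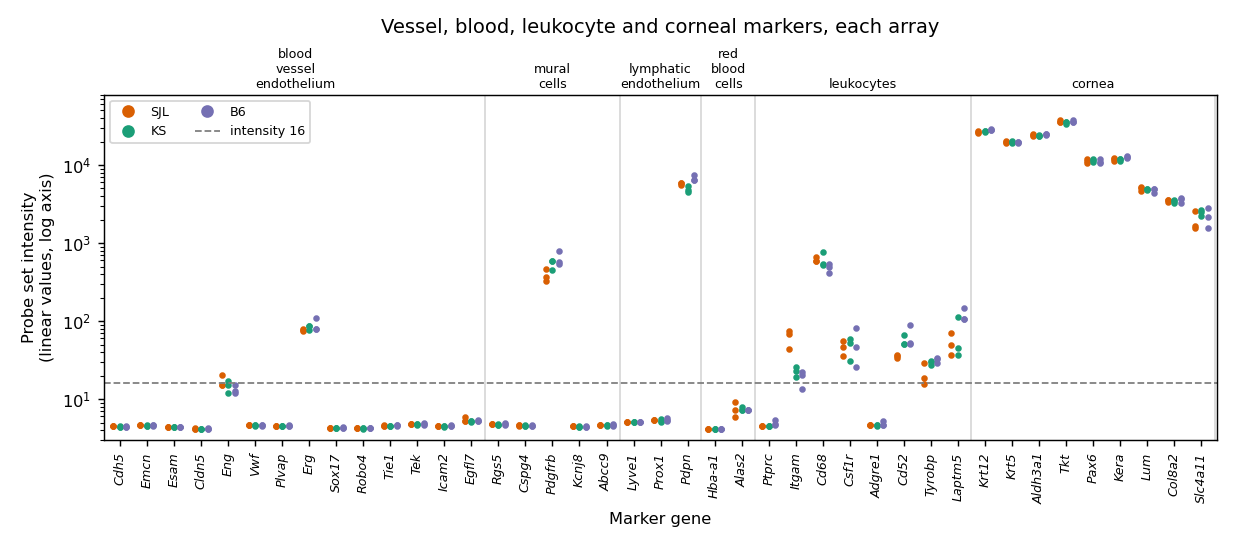
Intensity (log axis) of markers for blood vessel endothelium, mural cells, lymphatic endothelium, red blood cells, leukocytes and cornea on each array, with SJL, KS and B6 from left to right for each gene. The dashed line is an intensity of 16. Most vessel markers lie near 4 to 6 in every strain, and the corneal markers lie far above the line.

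Most tested markers of the border of the cornea were, like Kdr, lower in SJL than in B6. The means of Krt4 and Krt15 rose in the order SJL, KS, B6 of the Kdr means. Those of Krt13 and Gpha2 did not rise from KS to B6. Krt4 lay under 16 on every SJL array (4.09, 4.08 and 4.10) and on KS replicates 1 and 2 (11.9 and 6.90). Its higher KS value, 38.1, came from KS replicate 3, the array with photoreceptor transcripts. The Krt15 step between KS and B6 was not called (log2 difference -0.51, limma adjusted p = 0.761). The summed intensity of 6 markers of conjunctiva and limbus, the vascularised border of the cornea, was 6695 to 8397 in SJL, 21602 to 24088 in KS and 24199 to 29682 in B6. Most of it came from Krt13 (means 12120 in KS and 12035 in B6) and Krt15 in those strains. In SJL it came from Krt13 and Krt19 (means 3709 and 3322). The sum therefore follows a few keratins, and the amount of border tissue was not measured. Of the 5 tested, limma called 3 lower in SJL against KS and 4 lower in SJL against B6, and Krt19 higher in SJL against B6. Over all probe sets tested, 6.98% were called higher and 8.52% lower in SJL against KS. In SJL against B6 these shares were 7.92% and 8.09%. Krt4 was called lower in KS against B6 (log2 difference -2.08, adjusted p = 0.0229), as were 2.8% of all probe sets tested. Muc5ac, the goblet cell mucin that defines conjunctiva, was near the lower end on all arrays. The part of these cells in the Kdr difference was not tested. Leukocyte markers, which bear on Pecam1, summed to 783 to 896 in SJL, 706 to 1067 in KS and 727 to 838 in B6, and Ptprc, their defining marker, was near the lower end throughout. Of the 6 leukocyte markers tested, Itgam was called higher in SJL against both other strains and Cd52 lower in SJL against B6. The shares over all probe sets given above apply to these calls too. Of 8 markers of pigment cells, a known source of Serpinf1, 5 were near the lower end, among them Rpe65 and Tyr. Their sum was 97.4 to 114 in SJL, 102 to 151 in KS and 106 to 186 in B6, and neither of the 2 tested was called.

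The balance of promoting against restraining transcripts was read as the log2 value of a ligand minus that of Serpinf1 on the same array. Such a difference has no meaning as a level, because the probe sets differ, but it can be compared between strains. For Vegfb, the ligand with signal in all strains, it was -6.14 ± 0.15 in SJL, -6.12 ± 0.26 in KS and -5.84 ± 0.06 in B6 (SD, n = 3). The strain differences were -0.02 for SJL against KS, -0.27 for KS against B6 and -0.30 for SJL against B6. The first of these had no settled sign, being 0.021 with a pseudocount of 50, 0.046 with quantile normalization, 0.20 with means over probe sets, 0.041 without SJL replicate 3 and 0.12 without KS replicate 1. KS against B6 was -0.53 with means over probe sets and -0.42 without KS replicate 1, but -0.19 without KS replicate 2 and -0.22 without KS replicate 3. For the mean of Vegfa, Vegfb and Vegfc it was -7.66 ± 0.09 in SJL, -8.02 ± 0.15 in KS and -7.48 ± 0.19 in B6. The differences were then 0.37, -0.54 and -0.17 in the same contrasts, with no test made. For Vegfa alone they were 0.19, -0.31 and -0.12, and since Vegfa lay near the lower end these values follow Serpinf1. KS had the lowest balance in the mean over 3 ligands. That mean takes in the dim Vegfc probe set, which differed by -0.78 in KS against B6, where the Vegfb transcript differed by -0.02. Serpinf1 differed by 0.25 there and was not called (limma adjusted p = 0.337). Vegfc is averaged with the other ligands in this balance while Serpinf1 is subtracted in full, so the 2 differences do not weigh alike. By Vegfb alone, SJL at -6.14 and KS at -6.12 could not be ordered.

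Other genes of the pathway were read from 5 lists. Of 4 further VEGF ligands and co-receptors, Pgf and Vegfd were near the lower end. Nrp1, neuropilin 1, which presents Vegfa to Kdr, was called lower in SJL at 712 ± 98.7 than in KS at 1260 ± 219 (log2 difference -0.81, adjusted p = 0.0114). It was not called in KS against B6 (0.53, adjusted p = 0.117, called at 0.019 with means over probe sets) or SJL against B6 (-0.28, adjusted p = 0.303, called at 0.0484 with array weights). Nrp2, a co-receptor for Vegfc, differed by 0.61 in KS against B6 (adjusted p = 0.0933), which was called without SJL replicate 1 (0.0406) and with the replicate number as a block (0.0375). Of 5 angiopoietin and Tie genes 4 were near the lower end, and Angpt2, a context-dependent antagonist of Angpt1, was at 140 ± 13.2 in SJL, 92.7 ± 42.6 in KS and 130 ± 45.0 in B6 with no call.

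Of 8 other promoting factors 5 were near the lower end, including Fgf2, Hgf and Pdgfb. Of the 3 tested, 2 were lower in SJL against KS and 1 in SJL against B6 by limma, beside 8.52% and 8.09% of all probe sets tested, and none was called higher. Ccn1, a matricellular protein that promotes vessel growth, was at 3866 ± 517 in SJL, 6393 ± 619 in KS and 6090 ± 130 in B6. It was called in SJL against KS (-0.73, adjusted p = 0.00376) and SJL against B6 (-0.66, adjusted p = 0.0058). With only probe sets that lack a suffix the differences were larger, -1.20 and -1.24, but closer to the limit of a call (adjusted p = 0.0498 and 0.0424). Fgf1, an acidic fibroblast growth factor, was at 691 ± 170 in SJL, 1213 ± 245 in KS and 964 ± 163 in B6 (SJL against KS -0.81, adjusted p = 0.04395). That call was lost without SJL replicate 2 or 3, KS replicate 1 or 2, or B6 replicate 1 or 3 (adjusted p = 0.0559 to 0.149) and with genes taken as means over their probe sets (-0.34, 0.158).

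Of 15 restraining factors listed, 12 were tested. Of these 12, 4 were called lower and 1 higher in SJL against KS, 0 were called in KS against B6, and 5 were called lower and 0 higher in SJL against B6. Over all probe sets tested the calls were 6.98% higher and 8.52% lower in SJL against KS, and 7.92% higher and 8.09% lower in SJL against B6. The log2 difference, called or not, was below 0 for 7 of the 12 in SJL against KS and for 6 in SJL against B6. At an unadjusted p under 0.05 limma gave 7, 6 and 6 of the 12. These counts are for SJL minus KS, KS minus B6 and SJL minus B6, in that order. Of all 22519 probe sets tested, 6492, 4322 and 6614 had such a p, in the same order. The median log2 difference of the 12 was -0.48, 0.18 and -0.23 in these contrasts, beside 0.01, 0.02 and 0.02 over all probe sets tested. Cnmd, chondromodulin, which keeps cartilage free of vessels, was at 417 ± 96.1 in SJL, 694 ± 136 in KS and 1074 ± 109 in B6. Its call in SJL against B6 (-1.36, adjusted p = 0.00201) held in every fit that tested it. Its call against KS (-0.73, adjusted p = 0.0387) was lost without any 1 of the arrays other than SJL replicate 2 (adjusted p = 0.0511 to 0.117).

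Other restraining genes had the following values. Timp3, a metalloproteinase inhibitor that blocks Vegfa binding to Kdr, was at 986 ± 210 in SJL, 2267 ± 297 in KS and 1510 ± 85.5 in B6. Thbs1, thrombospondin 1, was at 644 ± 218, 1485 ± 203 and 1198 ± 161 in the same strains, and Thbs2, its relative, at 2075 ± 428, 2821 ± 213 and 3123 ± 259. The calls of these 3 genes in SJL against B6 (adjusted p = 0.0295, 0.0299 and 0.0312) were lost without SJL replicate 3 (0.103, 0.0783 and 0.0652) and B6 replicate 1 (0.0913, 0.0956 and 0.0696). In SJL against KS, Timp3 gave -1.20 (adjusted p = 0.00133) and Thbs1 -1.24 (0.0085, or -0.65 with means over probe sets), and Thbs2 was not called (-0.46, 0.0855). Serpinb5, maspin, was at 15459 ± 750 in SJL, 13823 ± 262 in KS and 14006 ± 345 in B6 with no call. In SJL against B6, Timp3 also lost its call without SJL replicate 2 (0.0804), B6 replicate 2 (0.0626) or B6 replicate 3 (0.0664). Thbs1 lost its call there without KS replicate 1 (0.051) or B6 replicate 2 (0.0772), and Thbs2 without KS replicate 3 (0.0546), B6 replicate 2 (0.0594) or B6 replicate 3 (0.0924) and with the replicate number as a block (0.0541). With no filter on dim probe sets, the calls of Fgf1, Cnmd and Bnip3 in SJL against KS and of Thbs1, Timp3 and Thbs2 in SJL against B6 were lost (adjusted p = 0.0897 to 0.146), and so they were with only the 6 arrays of a contrast (0.0618 to 0.0859). Cnmd in SJL against KS was also lost with centring (0.0513), and Timp3 in SJL against B6 with means over probe sets (0.0522).

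Against KS, SJL had more Sema3a and less Pf4. Sema3a, a semaphorin that competes for Nrp1, was at 249 ± 19.4 in SJL, 126 ± 15.3 in KS and 187 ± 38.5 in B6. It was called higher in SJL against KS (0.94, adjusted p = 0.00349), and SJL and B6 overlapped with no call (0.41, adjusted p = 0.104). Pf4, a platelet chemokine, was at 10.3 ± 2.42 in SJL, 36.9 ± 6.91 in KS and 25.2 ± 0.22 in B6, and its 3 SJL values lay under 16. It was called lower in SJL against KS (-1.21, adjusted p = 0.000457) and against B6 (-0.81, adjusted p = 0.00393), but these sizes rest on the pseudocount. They were -1.76 and -1.25 with a pseudocount of 1, and -0.53 and -0.32 with 50.

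The hypoxia pathway, which drives Vegfa transcription when oxygen is short, gave signal in all strains. All 12 genes were tested, and 1 was called in any contrast, in SJL against KS. Over all probe sets tested in that contrast, 6.98% were called higher and 8.52% lower. The called gene was Bnip3, a mitochondrial protein, at 324 ± 101 in SJL, 725 ± 259 in KS and 379 ± 63.1 in B6 (SJL against KS -1.13, adjusted p = 0.0356). That call was lost without SJL replicate 2 or 3, KS replicate 1 or 3, or B6 replicate 1 (adjusted p = 0.0552 to 0.0994). The transcription factor Epas1 was at 10765 ± 1818 in SJL, 11341 ± 29.1 in KS and 11052 ± 747 in B6. Egln3, a prolyl hydroxylase induced by hypoxia, was at 12025 ± 818, 11128 ± 638 and 12546 ± 653 in the same strains (SD, n = 3).

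**Figure D5:**
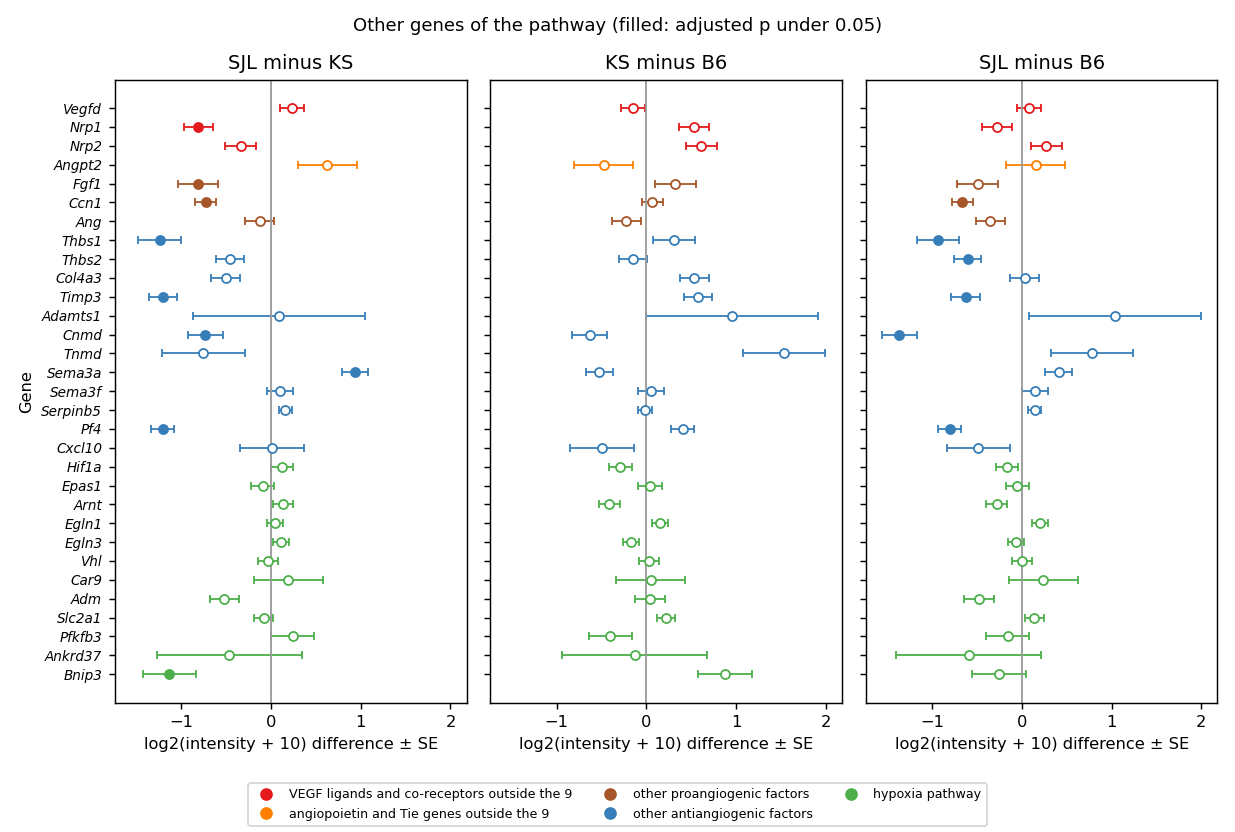
Differences in log2(intensity + 10) with SE for the tested genes of 5 pathway lists in 3 contrasts, coloured by list. Filled points had an adjusted p under 0.05, and they comprise 9 genes in SJL minus KS, 0 in KS minus B6 and 6 in SJL minus B6.

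Among 10955 other genes, those whose centred log2 values lay closest to Kdr over the 9 arrays were Zfp939, Igfbp4 and Nbeal2, with root mean square differences of 0.17, 0.17 and 0.19. Zfp939 was dim, at 5.49 ± 1.46 in SJL, 12.9 ± 1.34 in KS and 16.9 ± 5.95 in B6. Igfbp4, which binds insulin-like growth factors, was at 925 ± 195 in SJL, 1397 ± 126 in KS and 2032 ± 384 in B6. The closest to Vegfc were Atox1, Vps26c and Me2, at 0.17, 0.17 and 0.18. Atox1, a copper chaperone, was at 5313 ± 290 in SJL, 3740 ± 194 in KS and 5524 ± 423 in B6 (SD, n = 3). These values describe likeness over 9 arrays that share 3 strains.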

How the data were processed

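The authors deposited 1 intensity per probe set and array, on a linear scale from 3.39 to 37501. The labels give biotin labelling and do not record how probes were summarised or arrays scaled. The upper quartiles of the arrays ran from 380 to 396. Precision is limited by 3 arrays a strain.

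Of the 45037 probe sets, 34945 had 1 gene symbol, 932 several and 9160 none. Values were taken as log2(intensity + 10), a scale on which low probe sets show less than their true fold. Probe sets with a mean under the median of 4.17 were left out, which kept 22519. Limma 3.58.1 in R 4.3.3 fitted 1 mean per strain, with 6 residual degrees of freedom (median 8.41 after moderation). P-values are two-sided with Benjamini-Hochberg adjustment over all 22519. A result is called at an adjusted p under 0.05. The code was tested on simulated data. Permuting 3 against 3 arrays gives no p under 0.1, so no such test was run.

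The members and lists were chosen with earlier results of these data known. All members are named. A pathway list gives up to 4 called genes of the largest difference per contrast, or up to 2 of the highest mean where none was called. Cnmd in SJL against KS and Thbs2 in SJL against B6 fall outside this rule and were added after their values were seen, as were the single markers named from the marker lists and the balance of Vegfb against Serpinf1. The 3 genes most like each member called by the F-test had the smallest root mean square difference of centred log2 values. Promoters are from RefSeq, build GRCm38.p6, matched by symbol. Alternatives were other filters, pseudocounts of 1 and 50, quantile normalization, centring, an intensity trend, array weights, a replicate block, only 6 arrays, other choices of probe set, and leaving out each array.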

Additional observations from a re-analysis of the deposited data

How the results depend on the processing

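Of 291 log2 differences of members under 21 alternatives, 8 reversed, 6 lost their call and 4 gained one. All 8 were small differences that were not called. Vegfc in SJL against B6 became 0.042 with quantile normalization and ran from -0.13 to 0.044 when 1 array was left out. Vegfb in KS against B6 became 0.013 with array weights and ran from -0.099 to 0.060 with 1 array left out, and Vegfa in SJL against B6 from -0.070 to 0.00024. Among the other genes, Nrp2 in SJL against B6 became -0.017 and Epas1 0.028 with array weights, whose estimation stopped before it converged. Epas1 became 0.47 there with means over probe sets, and Ccn1 in KS against B6 became -0.046 with unsuffixed probe sets. With 1 array left out, Angpt2 in SJL against B6 ran from -0.15 to 0.31, Epas1 from -0.15 to 0.095, and Epas1 in KS against B6 from -0.0032 to 0.092. The cause was not tested.

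Members called numbered 1 in each contrast and 2 by the F-test. With no filter they were 0 in KS against B6, 0 in SJL against B6 and 1 by the F-test. The filter at the 70th percentile tested 1 member, Serpinf1, and gave 0 in all 4. Array weights gave 3 in SJL against KS, with Vegfb (adjusted p = 0.0138) and Kdr (0.000697) added. Only the 6 arrays of a contrast gave 2 in SJL against KS and 0 in SJL against B6. The mean of all probe sets and unsuffixed probe sets each gave 0 in both contrasts with KS and 1 by the F-test, since Vegfc was not tested there. Leaving out 1 array gave 1 to 2 in SJL against KS, 0 to 1 in each contrast with B6 and 1 to 2 by the F-test. With the replicate block the F-test called 1 member, Vegfc. Same-numbered arrays correlated at -0.266 to 0.263 in their deviations. Arrays with different numbers were not compared, so these values cannot decide whether the numbers pair the mice. The block changed no other call of a member.

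The balance over 3 ligands in KS against B6 was -0.70 with a pseudocount of 1 and -0.37 with 50. With the mean of all probe sets Vegfa minus Serpinf1 was 0.41 for SJL minus KS and -0.54 for KS minus B6, and Vegfb minus Serpinf1 was 0.20 and -0.53. Probe sets called over the whole table numbered 3489, 1286, 3605 and 4374 by the F-test in the reported fit. They were 2101, 742, 2156 and 2659 at the 70th percentile, 9450, 2232, 7364 and 10501 with array weights, and, over genes, 1431, 666, 1582 and 1941 with the mean of all probe sets. KS against B6 had 838 with no filter, 748 without KS replicate 2 and 826 without KS replicate 3.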
